A study of Mus musculus with 5 samples.

Results

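The 10 genes described here encode transcription factors of the ETS family: Ets1, Ets2, Etv4, Etv5, Etv6, Elk3, Ehf, Elf3, Elf5 and Fli1. They were chosen by name out of 22380 protein-coding genes of the mouse annotation, with earlier results of these data known. What was measured at each of them is where SOX11 and SOX4 were found on the surrounding chromatin. A peak was given to a gene when its centre lay in the gene body or within 10 kb of it, or when the gene owned the nearest protein-coding transcription start. By this rule 36 of 21270 SOX11 peaks and 4 of 2669 SOX4 peaks were given to the 10 genes, and no peak was given to more than 1 of them.

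The data came from chromatin immunoprecipitation and sequencing (ChIP-seq) in primary keratinocytes of newborn mice with the genotype Krt14-Cre;Sox11fl/fl;Sox4fl/fl labelled as mixed 129SvEx:C57BL/6 (the Krt14-Cre parents were FVB/N per the study's methods), in which a keratin 14 promoter drives Cre so that both Sox genes are deleted in keratinocytes. The cells carried a lentiviral vector that makes FLAG-tagged SOX11 or FLAG-tagged SOX4 when doxycycline is added, and were fixed after 24 h of doxycycline, so every peak records an introduced, tagged protein in cells without their own SOX11 and SOX4. Anti-FLAG libraries comprised 2 for SOX11-FLAG and 2 for SOX4-FLAG, with 1 control library that was made with mouse IgG per its antibody label and is titled as input. A single list of peak positions was attached to both libraries of a factor, with no height, score or read count, so no spread between replicates could be given and no test was made, and the keratinocyte label could not be checked against marker genes.

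ETS factors bind DNA through a winged helix domain that reads a GGAA core. Ets1 and Ets2 are phosphorylated downstream of RAS and MAP kinases, Etv4 and Etv5 belong to the PEA3 subfamily and act downstream of FGF and receptor tyrosine kinases, and Etv6 (TEL) is mainly a repressor. Elk3 is a ternary complex factor that works with serum response factor, Ehf, Elf3 and Elf5 are the epithelium-specific members, and Fli1 acts chiefly in blood and endothelial cells. SOX11 and SOX4 are SOXC proteins whose HMG domain binds in the minor groove at CTTTGT and CATTGT cores, and in skin they are known as factors of embryonic epidermis.

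Of the 4 places where both factors were listed at these genes, 3 are shown in full, 1 for each of Etv6, Ets2 and Elk3, together with the stretch upstream of Etv4 covered by a SOX11 peak. Each is the reference sequence of mouse build mm9 over the SOX11 peak. Capitals mark CTTTGT or CATTGT on either strand. AP-1 cores (TGAGTCA or TGACTCA) and ETS cores (CCGGAAG or CAGGAAG) were to be capitalised as well, but these 4 stretches hold none. Peaks are numbered by their line in the deposited list of their factor.
Etv6 peak 23, chr6:133985178-133985435, plus strand: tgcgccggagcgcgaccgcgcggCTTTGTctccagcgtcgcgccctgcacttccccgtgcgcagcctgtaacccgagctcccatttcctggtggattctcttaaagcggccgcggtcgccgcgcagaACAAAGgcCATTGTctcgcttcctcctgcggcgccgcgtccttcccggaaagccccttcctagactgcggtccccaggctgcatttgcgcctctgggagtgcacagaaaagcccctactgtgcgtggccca
Ets2 peak 361, chr16:96049003-96049260, plus strand: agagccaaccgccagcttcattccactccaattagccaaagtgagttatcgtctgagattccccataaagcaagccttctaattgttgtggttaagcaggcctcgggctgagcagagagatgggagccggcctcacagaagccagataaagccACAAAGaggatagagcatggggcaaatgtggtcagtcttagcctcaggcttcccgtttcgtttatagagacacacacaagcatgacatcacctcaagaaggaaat
Elk3 peak 2821, chr10:92779686-92779943, plus strand: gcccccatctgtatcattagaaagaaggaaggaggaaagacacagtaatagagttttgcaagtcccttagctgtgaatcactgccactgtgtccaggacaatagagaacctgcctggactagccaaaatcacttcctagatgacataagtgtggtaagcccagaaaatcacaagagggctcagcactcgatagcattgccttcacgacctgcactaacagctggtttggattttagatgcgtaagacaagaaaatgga
Etv4 peak 2266, chr11:101646686-101646785, plus strand: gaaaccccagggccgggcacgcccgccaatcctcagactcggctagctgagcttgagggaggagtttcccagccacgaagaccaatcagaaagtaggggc
The Etv6 stretch carried 3 SOX cores, and 2 of them stood 2 bases apart near the centre. The Ets2 stretch carried 1, and the Elk3 stretch none. The Etv4 stretch is the 100 bases of the peak that lie before the transcription start, and the SOX core of that peak lay just beyond it, within the transcribed part.

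SOX11 peaks were given to 9 of the 10 genes, against 57.0% of all protein-coding genes by the same rule. Ets2 had 12, Elk3 6, Ets1 5, Etv6 4, Etv4 3 and Elf3 3, and Etv5, Ehf and Elf5 had 1 each, while Fli1 had 0. SOX4 peaks were given to 3 of the 10 genes, against 13.0% of all: Ets2 had 2, and Etv6 and Elk3 had 1 each. The 10 genes were chosen with earlier results of these data known, so neither excess can be read apart from that choice. Etv4 is among the genes that the study lists as directly regulated by SOX11 and SOX4. For that list a peak of either factor was enough, combined with changed expression in embryonic epidermis and keratinocytes lacking both genes. The study held that its SOX4 data could miss many bound sites. Of the 16 other ETS genes, 9 had a SOX11 peak and 1 had a SOX4 peak. The median was 3 SOX11 peaks a gene over the 10 and 1 over all genes. The stretch of chromosome from which a gene could collect peaks was also longer here, with a median of 176 kb against 57.2 kb, and per 100 kb of that stretch the medians were 0.987 and 0.755. The density was 1.06 for Etv6, 0.914 for Elf5, 0.573 for Ehf and 0.466 for Etv5. These exceeded 54.1%, 52.1%, 47.8% and 46.6% of genes, in that order. For Etv4 it was 3.74, above that of 84.5% of genes, and the other densities are given below. With the nearest-start part of the rule left aside, 7 of the 10 genes had a SOX11 peak in the gene body or within 10 kb, against 50.7% of all genes. The nearest start does not establish which gene a peak acts on.

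**Figure D1:**
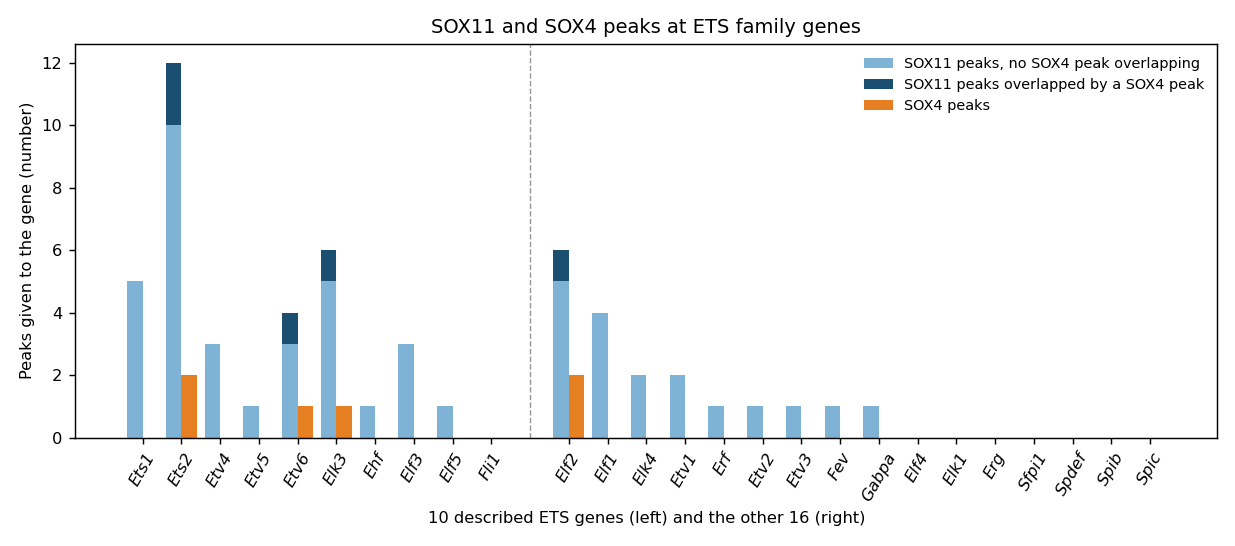
Number of SOX11 and SOX4 peaks given to each ETS family gene, with the 10 described genes left of the dashed line and the other 16 right of it. Light and dark blue are SOX11 peaks without and with an overlapping SOX4 peak, and orange is SOX4 peaks. Ets2 has 12 SOX11 peaks, Elk3 and Elf2 have 6 each, and Fli1 has 0.

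Ets2, with its gene body of 19 kb on chromosome 16 (95923682 to 95942658, plus strand), had more SOX11 peaks than any other of the 10 genes when nearest-start peaks were included. In its body or within 10 kb it had 2, fewer than Ets1 and Etv6 with 4 each and Elk3 with 3. By the full rule, 57 of the 22380 genes, 0.255%, had 12 or more. The peaks spread over 189 kb, from 45.8 kb before the gene's 5′ end to 143 kb after it, and 11 of the 12 lay between genes and 1 in an intron. None lay in an Ets2 promoter, defined as 1 kb before to 100 bp after a transcription start. Related to the 209 kb of chromosome that fell to Ets2, the density was 5.75 SOX11 peaks per 100 kb, which was above that of 94.0% of genes. Both Ets2 peaks that overlapped SOX4 lay far beyond the 3′ end of the gene. The first, number 361 in the SOX11 list (chr16:96049003-96049260), had its centre 125 kb from the 5′ end and fell whole within SOX4 peak 744 (chr16:96048937-96049276). The other, number 621 (chr16:96012332-96012589), lay 88.8 kb from the 5′ end and fell whole within SOX4 peak 170 (chr16:96012312-96012651). Its SOX core was centred 4 bp from the middle of the peak, and that of peak 361 lay 27 bp away. The neighbours were spaced unevenly: a pair upstream, numbers 6852 and 6630, had centres 615 bp apart, and the widest step, 42.8 kb, crossed the Ets2 start.

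Ets1, on chromosome 9 (32443806 to 32565405, plus strand), had 5 SOX11 peaks and no SOX4 peak. The earliest listed, number 4541 (chr9:32503355-32503612), lay 143 bp before a start that 3 transcripts use, 59.7 kb inside the gene. This promoter stretch had a GC content of 73.3% and no SOX core. Another 2 peaks lay in introns, 80.1 and 114 kb from the 5′ end, 1 lay 6.54 kb upstream, and the last, number 19673, lay 444 kb downstream of the 5′ end. Its nearest start was still that of Ets1, 384 kb away. Ets1 had 1002 kb of chromosome to collect peaks from and a density of 0.499 per 100 kb, which was above that of 47.1% of genes. Its count thus ranked high, while its density was below the median of all genes, 0.755. Genes with no SOX11 peak, 43.0% of all, are among those that it exceeded.

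Etv4 and Etv5, the PEA3 members, differed in number of peaks but each had one near a start. Etv4, on chromosome 11 (101631056 to 101646685, minus strand), had 3 SOX11 peaks. The first of them, number 2266 (chr11:101646528-101646785), was centred 28 bp after the gene's own start, with a SOX core 7 bp from the centre. The others lay 22.1 and 54.3 kb upstream. Etv5, on chromosome 16 (22381382 to 22439792, minus strand), had 1 SOX11 peak, number 1357 (chr16:22434745-22435002), in an intron 4.92 kb from the gene's 5′ end and 1.71 kb after an internal start. Neither gene had a SOX4 peak. The closest SOX4 peak lay 36.9 kb from the body of Etv4 and 115 kb from that of Etv5, and both had another gene's start nearer.

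Etv6, on chromosome 6 (133985718 to 134220176, plus strand), carried the peak that came earliest in the SOX11 list of all 36, at number 23 of 21270. It lay in the Etv6 promoter (chr6:133985178-133985435), centred 411 bp before the start, and fell whole within SOX4 peak 48 (chr6:133985142-133985481). This was the only one of the 4 shared places that lay in a promoter. Its GC content was 65.9%. The other 3 SOX11 peaks of Etv6 lay in introns, 83.7, 94.3 and 164 kb from the 5′ end, and none had a SOX4 peak.

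Elk3, on chromosome 10 (92710159 to 92773880, minus strand), had 6 SOX11 peaks at 4.14 per 100 kb, a density above that of 87.6% of genes. Introns held 2 of them, 1.48 and 23.3 kb from the 5′ end, and 4 lay upstream between genes. The peak shared with SOX4, number 2821 (chr10:92779686-92779943), was centred 5.93 kb before the start, and 254 of its 258 bp were covered by SOX4 peak 1566 (chr10:92779600-92779939). It was also the only shared peak in which neither SOX core was found, which says only that these letters are not in this window. A pair further upstream, numbers 15457 and 16986, had centres 549 bp apart.

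The epithelium-specific members had 3, 1 and 1 SOX11 peaks and no SOX4 peak. Elf3, on chromosome 1 (137150151 to 137155049, minus strand), had 3 SOX11 peaks around a gene body of 4.90 kb, at 5.42 per 100 kb, a density above that of 93.4% of genes. The earliest listed, number 5166 (chr1:137157631-137157888), lay 2.71 kb before its start, and the others 9.88 and 30.9 kb after it, past the end of the gene. Ehf, on chromosome 2 (103103590 to 103143435, minus strand), had 1 SOX11 peak, number 8387 (chr2:103049675-103049932), which lay 53.8 kb beyond the gene and 93.6 kb from its 5′ end. Elf5, on the same chromosome (103251845 to 103291146, plus strand), also had 1, number 8260 (chr2:103212548-103212805), 39.2 kb upstream. Neither gene had a SOX11 peak in its body or within 10 kb. A second SOX11 peak, number 6160, lay closer to the Elf5 body, at 34.3 kb, but was nearest to the start of Cat.

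Fli1, on chromosome 9 (32229793 to 32348974, minus strand), had 0 peaks in both lists. The SOX11 peak closest to its body was number 15072 at 88.3 kb, given to Ets1, and the closest SOX4 peak lay 1601 kb away. Fli1 and Ets1 are direct neighbours, read away from each other, and that peak was the only SOX11 peak in the 94.8 kb between them. Ets2 and Erg, another ETS gene, stand next to each other in the same manner. The 115 kb between them held 4 SOX11 peaks, all nearest to the Ets2 start, and Erg had 0. Ehf and Elf5 are neighbours too, with 1 SOX11 peak in the 108 kb between them. In all 3 neighbouring pairs the SOX4 list had 0 peaks between the genes.

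**Figure D2:**
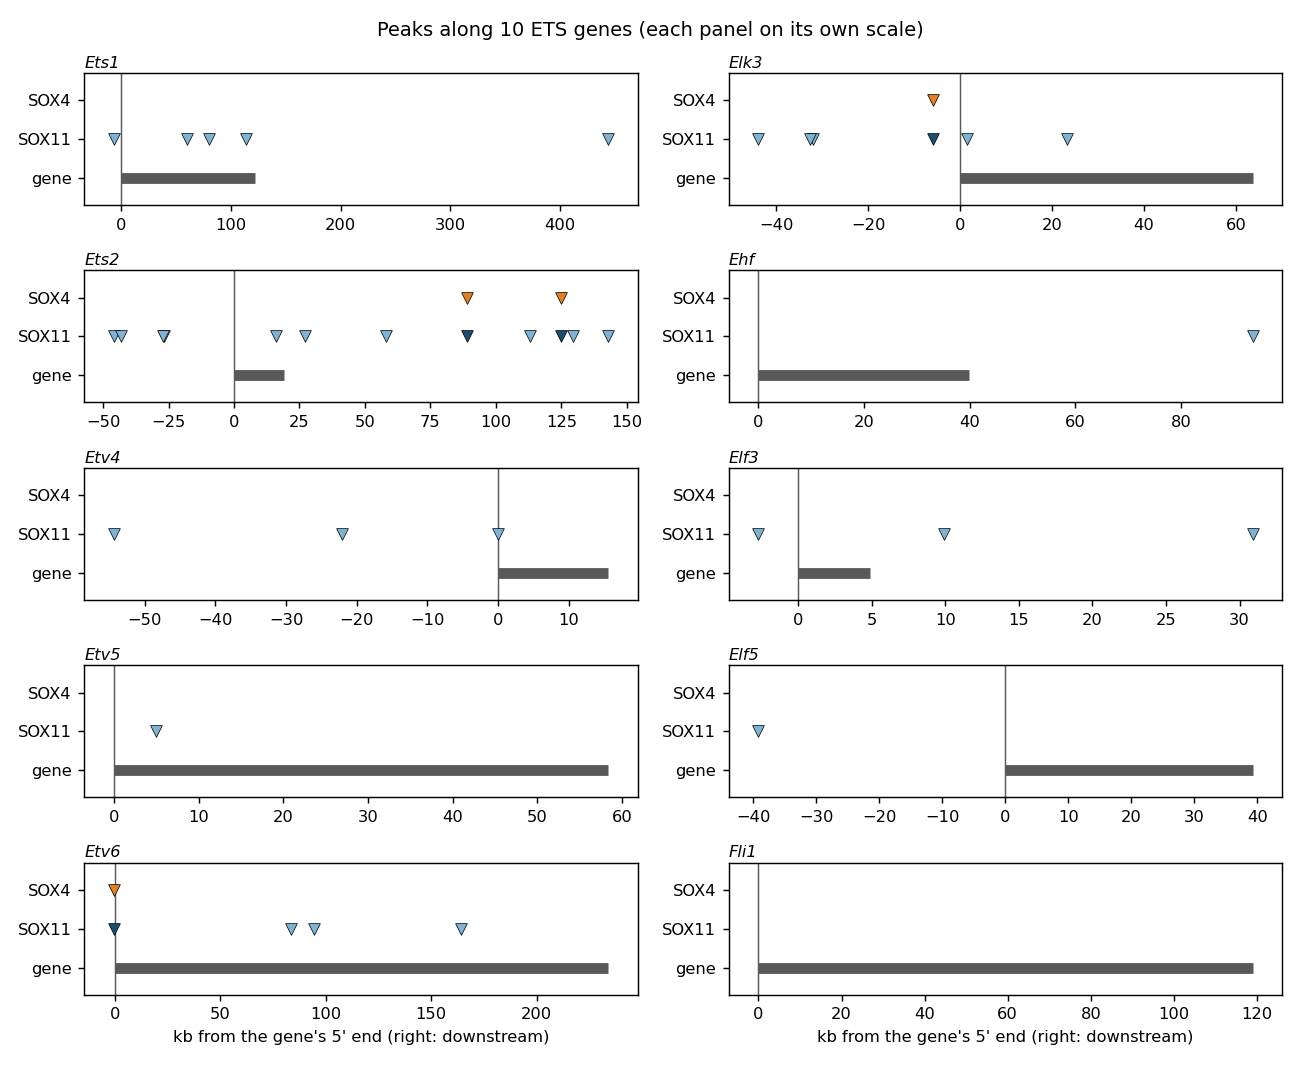
Position of each peak by its centre, in kb from the gene's 5′ end, with positive values downstream and each gene on its own scale. The grey bar is the gene body, blue triangles are SOX11 peaks (dark where a SOX4 peak overlaps) and orange triangles SOX4 peaks. The 12 peaks of Ets2 lie from 45.8 kb before to 143 kb after its 5′ end, mostly outside the gene, whereas the 4 of Etv6 lie at its start and in its introns.

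All 4 SOX4 peaks overlapped a SOX11 peak, against 94.5% of all SOX4 peaks. In the other direction, 4 of the 36 SOX11 peaks, 11.1% (95% Wilson interval 4.41 to 25.3), were overlapped by a SOX4 peak, against 11.9% of all SOX11 peaks. This share thus did not differ from the background beyond its interval. Here and below, intervals cover counting error over peaks only, and neighbouring peaks of a gene are not independent.

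The 36 peaks lay mostly away from starts. Between genes were 24 of 36, 66.7% (50.3 to 79.8), against 40.0% of all SOX11 peaks, 9 lay in introns and 0 in exons. In promoters were 3 of 36, 8.33% (2.87 to 21.8), against 23.3% of all SOX11 peaks, and these were the peaks at Etv6, Etv4 and Ets1. The median distance to the nearest start was 32.3 kb against 11.5 kb. Over the 24 peaks of the genes other than Ets2, 54.2% (35.1 to 72.1) lay between genes and 12.5% (4.34 to 31.0) in promoters, and the median distance was 26.9 kb. Both of these intervals include the share over all peaks. The 10 genes also had a longer stretch to collect peaks from, with a median of 176 kb against 57.2 kb over all genes. Its part in these distances was not tested.

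The place of the 36 peaks in the SOX11 list was also recorded. Their median line number was 6344 of 21270, and 26 of them, 72.2% (56.0 to 84.2), were in the first 50% of the list. Without the 12 peaks of Ets2, whose median line number was 3889, the share was 62.5% (42.7 to 78.8), an interval that includes 50%. The list has no score, and what its order means is not given. Over the first 50% of the list, 21.1% of SOX11 peaks overlapped a SOX4 peak, against 11.9% over all of it, and for the ETS genes the share in that part was 4 of 26, 15.4%. All 4 shared peaks stood there, at numbers 23, 361, 621 and 2821, as did 88.8% of all shared SOX11 peaks. Apart from Fli1, each gene had its earliest listed peak in the first 50%, from number 23 for Etv6 to number 8387 for Ehf. The earliest of several peaks falls early more readily than a lone peak does, and Ets2 had 12. The matching share over all genes with a SOX11 peak is not given, so these positions were not read as a trait of the ETS genes.

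**Figure D3:**
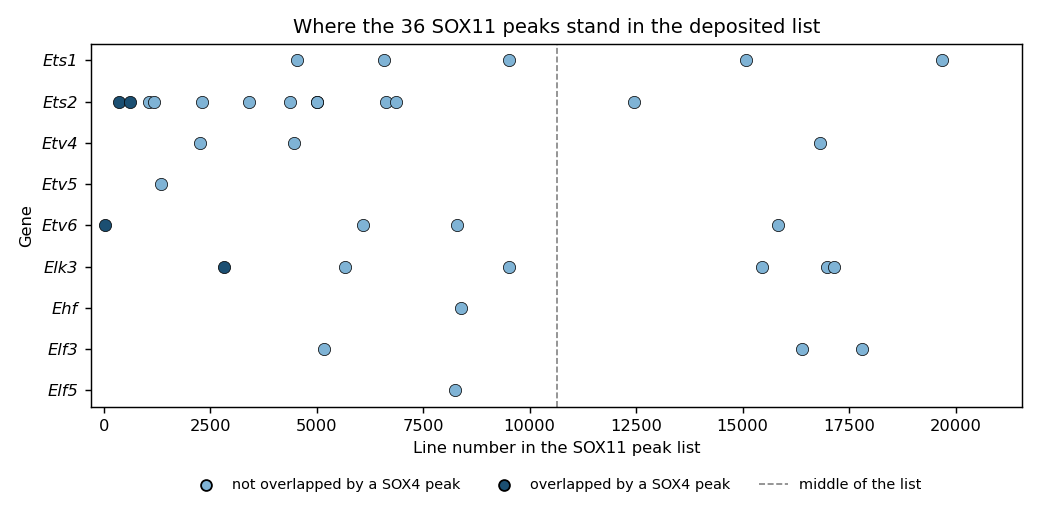
Line number of each SOX11 peak in the deposited list (horizontal axis, 1 to 21270) for the 9 genes that had one. Dark points are the 4 peaks overlapped by a SOX4 peak, at numbers 23, 361, 621 and 2821, and the dashed line is the middle of the list. Of the 36 points, 26 lie left of that line.

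Motifs were searched by their letters on both strands over the 258 bp of each peak. A SOX core was present in 23 of 36 peaks, 63.9% (47.6 to 77.5), against 58.5% of all SOX11 peaks. In windows shifted by 2 kb, the shares were 25% for the 36 and 32.2% for all. AP-1, the FOS and JUN dimer, was represented by its core in 12 of 36, 33.3% (20.2 to 49.7), against 28.5% of all, and in shifted windows by 2.78% and 4.59%. The TEAD core GGAATG was present in 9 of 36, 25% (13.8 to 41.1), against 22.8% of all. An SP core, CCCCGCCC, was present in 4 of 36, 11.1% (4.41 to 25.3), against 10.7% of all, among them the Etv4 and Ets1 promoter peaks. The share for each of these 4 motifs had the value over all peaks within its interval.

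The ETS core, which the products of these genes could themselves bind, was present in 5 of 36 peaks, 13.9% (6.08 to 28.7), against 19.3% of all SOX11 peaks. The shifted windows held it in 16.7% for the 36 and 10.3% for all. The 36 peaks and their shifted windows, with the core in 5 and 6, had overlapping intervals. Their order turned on Ets2, whose 12 peaks held the core in 0 and their shifted windows in 4. The other 24 peaks held it in 20.8% (9.24 to 40.5) and their shifted windows in 8.33% (2.32 to 25.8). These intervals overlap as well, so neither order was read as a difference. The 5 peaks belonged to Ets1, Etv6, Elk3, Elf3 and Elf5. In the Elf5 peak the core lay 0.500 bp from the centre, and that peak held neither SOX nor AP-1 core.

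**Figure D4:**
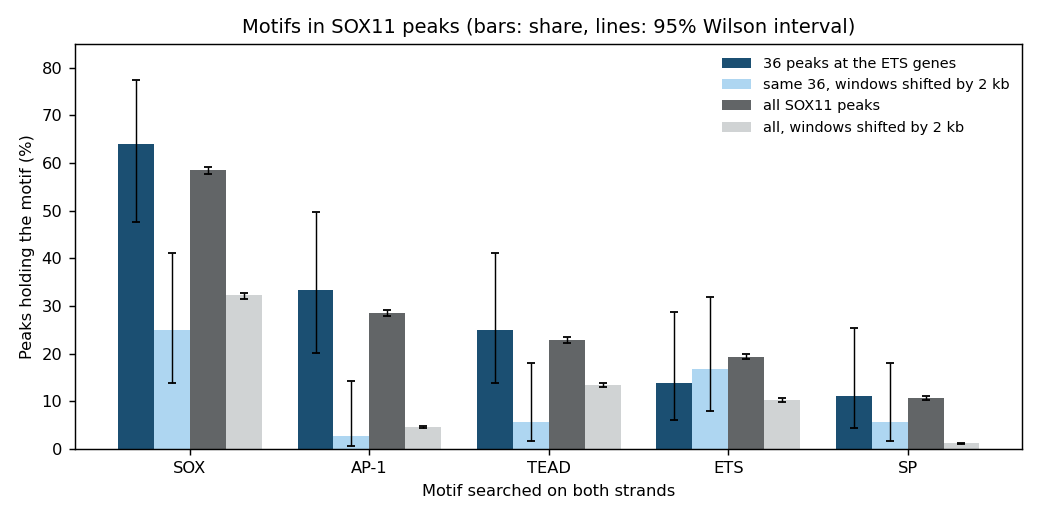
Share of peaks holding each motif, in percent, for the 36 SOX11 peaks at the ETS genes (dark blue), the same 36 shifted by 2 kb (light blue), all 21270 SOX11 peaks (dark grey) and all shifted (light grey), with 95% Wilson intervals for counting error. The SOX share is 63.9% in the 36 peaks and 25% in their shifted windows. The ETS share is 13.9% and 16.7%, with overlapping intervals, and this order is reversed without Ets2, again with overlapping intervals.

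SOX cores lay near the middle of the peaks. In 13 of the 23 peaks with a core, the closest was centred within 10 bp of the peak centre, 56.5%, against 34% of the 12439 SOX11 peaks with a core. Within 5 bp the shares were 43.5% and 20.5%, and within 30 bp they were 73.9% and 65.4%. At the other ETS genes, the share within 10 bp was 2 of 9, 22.2%. No interval was computed for these shares. Windows of 26 bases around a SOX core are printed for 1 peak of each gene that had one within 10 bp. They are read along the strand with the core, with the core in capitals.
Ets1 peak 9514, chr9:32523918-32523943, plus strand: tctggctgccCATTGTttctggtgct
Ets2 peak 621, chr16:96012452-96012477, minus strand: aataaatcctCTTTGTtctagaagct
Etv4 peak 2266, chr11:101646651-101646676, plus strand: caccggttccCTTTGTttcattgact
Etv5 peak 1357, chr16:22434866-22434891, plus strand: catcagccagCTTTGTccttggtagc
Etv6 peak 23, chr6:133985295-133985320, minus strand: agacaatggcCTTTGTtctgcgcggc
Elk3 peak 9525, chr10:92750610-92750635, minus strand: caaagtagaaCTTTGTgtgactcagt
Ehf peak 8387, chr2:103049787-103049812, minus strand: taaaaagtggCATTGTacaagatgtt
CTTTGT was the core in 5 of these 7 windows and CATTGT in 2. The windows were picked after their values were seen, so these counts describe the printed windows only. The windows of Ets2 and Etv6 read on as CTTTGTTC. This longer form, with CATTGTTC, was found in 6 of the 36 peaks, 16.7%, against 12.5% of all.

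SOX cores came in groups of 2 or more in 10 of 36 peaks, 27.8%, against 16.6% of all SOX11 peaks. The closest pair in a peak stood at most 10 bases apart in 5 of these 10, against 14.4% of the 3539 such peaks in the list. No interval was computed for either share, and most of the 10 peaks were at Ets2, Elk3 and Ets1. Neither share was thus read as a difference from all peaks. The 5 pairs at most 10 bases apart are printed with both cores in capitals.
Etv6 peak 23, chr6:133985305-133985318, plus strand: ACAAAGgcCATTGT
Ets2 peak 2319, chr16:95877853-95877873, plus strand: ACAATGgtctcctgaACAAAG
Ets2 peak 5015, chr16:95939820-95939841, plus strand: CTTTGTtcctagttagACAAAG
Ets1 peak 9514, chr9:32523897-32523915, plus strand: CTTTGTctgtaacCATTGT
Elk3 peak 9525, chr10:92750620-92750636, plus strand: ACAAAGttctaCTTTGT
The arrangement was not fixed. The cores read in the same direction in Ets2 peak 2319 and Ets1 peak 9514, toward each other in Ets2 peak 5015, and apart in Etv6 peak 23 and Elk3 peak 9525. Between the cores lay 2, 9, 10, 7 and 5 bases, in the order printed.

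SOX and AP-1 cores occurred together in 8 of 36 peaks, 22.2% (11.7 to 38.1), against 17.2% of all. Ets1 and Ets2 had 2 such peaks each and Elk3 had 4. In 3 of the 8 the AP-1 core stood within 5 bases of the SOX core, against 8.86% of the 3656 SOX11 peaks that hold both, and these are printed along the strand that reads CTTTGT or CATTGT.
Ets1 peak 6592, chr9:32557549-32557560, plus strand: CATTGTGAGTCA
Elk3 peak 9525, chr10:92750612-92750625, minus strand: CTTTGTgTGACTCA
Elk3 peak 16986, chr10:92806487-92806503, plus strand: CTTTGTtcagTGACTCA
AP-1 followed the SOX core in all 3, but cores that share 1 base can stand only in that order with these letters. Over the whole list, AP-1 came after in 42 peaks with a shared base and before in 0. In the intronic Ets1 peak the cores shared 1 base, in the intronic Elk3 peak 9525 there was 1 base between them, and in the upstream Elk3 peak 16986 there were 4. Over the whole list, AP-1 cores within 5 bases followed the SOX core in 123 peaks and preceded it in 201. The 8 peaks come from 3 genes, and the spacing was examined after the motif counts had been seen.

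**Figure D5:**
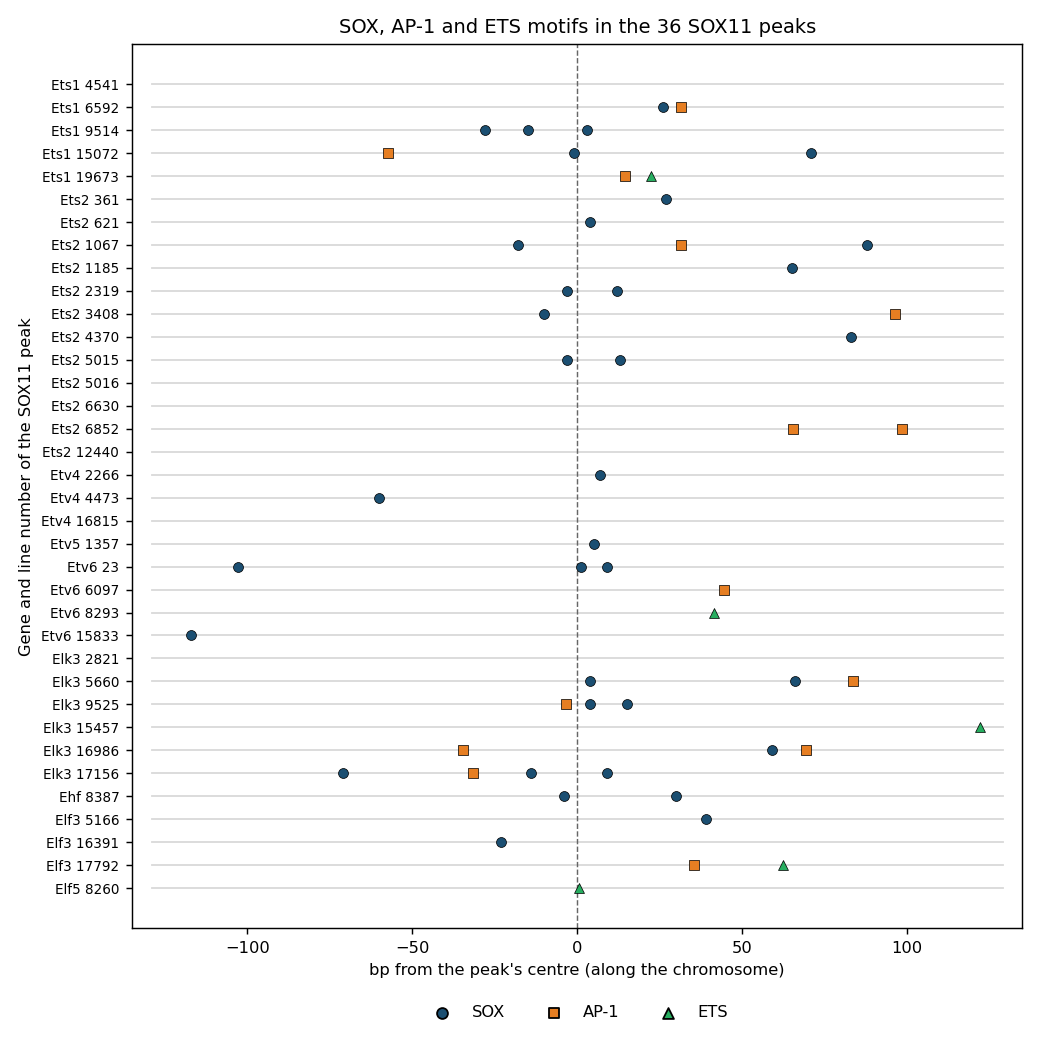
Position of each SOX (blue circle), AP-1 (orange square) and ETS (green triangle) core in bp from the centre of its peak, 1 line for each of the 36 SOX11 peaks, named by gene and list number. The median distance of SOX cores from the centre is 15.0 bp, and lines without a symbol hold none of the 3 motifs.

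The median distance of SOX cores from the centre was 15.0 bp over the 36 cores found and 27 bp over all peaks. For AP-1 cores the median was 40.0 bp in the peaks of the ETS genes and 48.5 bp over all peaks. Peaks without a SOX or AP-1 core numbered 9 of 36, 25%, against 30.2% of all. Among them were the Ets1 promoter peak and the Elk3 peak shared with SOX4.

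The other 16 genes of the ETS family show how the 10 compare with their relatives, with the reservation that the 10 were chosen with results of these data known. SOX11 peaks were given to 9 of the 16, 19 in all, and SOX4 peaks to 1. Elf2 was that gene, with 6 SOX11 and 2 SOX4 peaks, of which 1 overlapped SOX11. Elf4, Elk1, Erg, Sfpi1 (Spi1), Spib, Spic and Spdef had 0 peaks of either factor. The 19 peaks lay later in the list and nearer to starts: their median line number was 16524 against 6344 for the 36, and the median distance to the nearest start 1.05 kb against 32.3 kb. Without the peaks of Ets2, the medians of the 10 genes' peaks were 8340 and 26.9 kb. The other 16 genes also had a shorter stretch to collect peaks from, with a median of 69.5 kb against 176 kb. Promoters held 7 of the 19, 36.8% (19.1 to 59.0), of which 4 were promoters of a neighbouring gene. A SOX core was present in 9 of 19, 47.4% (27.3 to 68.3), and an AP-1 core in 3 of 19, 15.8% (5.52 to 37.6), and both intervals overlap those of the 36.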

How the data were processed

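For the ChIP-seq libraries, the authors placed reads on mouse build mm9 (Bowtie2), dropped duplicates (Picard), called peaks (HOMER findPeaks, factor style) and took out blacklisted regions (bedtools). Versions are not given in the sources used here. The deposited files hold coordinates only (chromosome, start, end), 1 list per factor attached to both of its libraries. Most peaks have 1 width, 258 bp for SOX11 and 340 bp for SOX4. How replicates were combined is not given, and depth is unknown. The control has no peak list and was not analysed here.

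Peaks were set against protein-coding starts and genes of GENCODE M1 on the matching genome build with Python 3.11.15 and pysam 0.24.0. An overlap of 1 bp counted as shared (checked with bedtools 2.31.1). Promoters ran from 1 kb before to 100 bp after a start. Motifs were exact matches on both strands, also in windows 2 kb further along the chromosome. Wilson intervals used scipy 1.17.1. On simulated data, 500 of 500 positions, 700 of 700 overlaps and 200 of 200 motifs were found. No test was made. The genes, gene lists and motifs were chosen with earlier results of these data known. All 10 genes were named, with peaks that were earliest listed, shared or in promoters. SOX spacing was added later, and pairs and windows printed there were chosen after their values were seen.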

Additional observations from a re-analysis of the deposited data

How the results depend on the processing

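The 9 results given as counts or shares were recomputed under 41 alternatives, 35 planned and 6, those without Ets2, added after the data were seen. Of these, 34 stayed within 1.5 times the count or within the share's interval. All 36 SOX11 and 4 SOX4 peaks had a start of the 10 genes nearest, so the nearest-start alternatives for these genes could not move. The SOX11 count without Ets2, 24, lay on the 1.5 limit. So did the 6 other ETS genes with a SOX11 peak by nearest start, against 9. With peaks in the gene body and 10 kb only, 17 SOX11 peaks and 2 SOX4 peaks remained, and with 2 kb only, 12 and 1. The longer SOX motifs CTTTGTTC and CATTGTTC were in 16.7% of the 36 peaks (12.5% of all), AP-1 with 1 mismatch in 86.1% (66.9% of all), and the longer ETS motifs CCGGAAGT and CAGGAAGT in 0 of 36, 0% (5.98% of all). No paired analysis was possible because both libraries of a factor share 1 list and no test was made.

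The lists hold no heights or reads, so depth, peak strength and spread between replicates could not be weighed. A gene without a peak is one without a listed peak. The SOX4 list is shorter than the SOX11 list, so a missing SOX4 peak was not read as a difference between the factors. The count at Ets2 rests on nearest-start assignment: 12 SOX11 peaks with it and 2 within 10 kb of the gene. With 36 peaks at 9 genes, and 12 of them at Ets2, shares have wide intervals.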
